A study of Mus musculus with 4 samples.

Results

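Interferon-stimulated genes are the genes that cells switch on when interferon binds its receptor. Here 46 of them, chosen by symbol from general knowledge of the interferon response, were followed through 4 libraries of mouse peritoneal macrophage RNA. They are 46 of 16403 genes that were listed in at least 1 library, and all 46 were listed in every library.

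The macrophages came from C57BL/6 mice given 4% thioglycolate in the peritoneal cavity 4 days earlier. After 4 h of adhesion the cells were held in 0.5% serum, and RNA was taken from untreated cells and from cells exposed for 6 h to mouse IL-4 (20 ng/mL). IL-4 drives macrophages toward alternative, or M2, activation through the transcription factor Stat6. The wild-type and TIF1a-KO groups differed in Trim24, which encodes the ubiquitin ligase TIF1a: per the study's methods, TIF1a-KO mice carried floxed Trim24 alleles and a Cre driven from the lysozyme M locus, which is active in myeloid cells. The groups were wild-type untreated, wild-type with IL-4, TIF1a-KO untreated and TIF1a-KO with IL-4, with 1 library in each, and whether cells of several mice were pooled is not stated. The design thus has no replicates, and a test on reads compares 2 libraries and not 2 conditions.

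Type I interferons signal through a receptor made of Ifnar1 and Ifnar2 and the kinases Jak1 and Tyk2. The complex they activate, which contains Stat2 and Irf9, binds the interferon-stimulated response element, or ISRE, in the promoters of many of these genes, whereas interferon gamma acts through the GAS element. The products sense viral nucleic acid, block viral entry, translation and release, or damp the response. Macrophages keep a low tonic level of this program without infection, and IL-4 uses another STAT protein, so the panel asks whether an interferon program moved with IL-4 or with loss of TIF1a.

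The promoters were searched for the elements that interferon signalling uses. As the genes were picked for their known response to interferon, a high share with these letters cannot count as separate support. Promoter windows, 250 bases before to 50 after an annotated start, were taken from RefSeq on build GRCm38.p6 and were given for 36 of the 46 genes. The 10 genes without one were Dhx58, Zbp1, Oas2, Usp18, Mx1, Mx2, Iigp1, Parp9, Parp14 and Rtp4. The windows were searched on both strands, with overlapping matches allowed, for the ISRE core GAAANNGAAA, where N is any base. It was present in 20 of the 36 genes (55.6%), in any of their windows, against 3.99% of 27025 genes and 3.44% of all 32851 windows. The GAS letters TTCNNNGAA were found in 11 of 36 (30.6%) against 9.55% of all genes and 8.30% of windows. The letters TTCNNNNGAA, the spacing that Stat6 is known to prefer, were found in 5 of 36 (13.9%) against 8.01% of all genes and 6.95% of windows. These matches are descriptions of letters and not of bound sites.

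The 250 bases before the start of 6 genes are printed 5′ to 3′ on the strand of the gene, with matches to the ISRE core in capitals. Ifit1 (chr19:34640639-34640888, plus strand) and Oas1a (chr5:120907526-120907775, minus strand) each hold 2 matches, which overlap in Oas1a. Gbp2 (chr3:142620413-142620662, plus strand) and Samhd1 (chr2:157135097-157135346, minus strand) are shown because both were higher with IL-4. Slfn5 (chr11:82951852-82952101, plus strand) and Trim25 (chr11:88999153-88999402, plus strand) are shown because both were lower with IL-4.
Ifit1: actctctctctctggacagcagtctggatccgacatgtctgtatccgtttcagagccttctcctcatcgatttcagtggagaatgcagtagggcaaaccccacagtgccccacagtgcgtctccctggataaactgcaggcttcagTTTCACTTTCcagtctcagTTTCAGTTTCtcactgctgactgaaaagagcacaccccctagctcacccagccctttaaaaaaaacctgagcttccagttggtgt
Oas1a: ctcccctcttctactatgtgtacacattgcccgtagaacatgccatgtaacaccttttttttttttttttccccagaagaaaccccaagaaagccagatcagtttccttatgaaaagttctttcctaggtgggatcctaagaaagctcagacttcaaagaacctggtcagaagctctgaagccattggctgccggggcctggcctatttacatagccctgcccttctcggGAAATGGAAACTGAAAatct
Gbp2: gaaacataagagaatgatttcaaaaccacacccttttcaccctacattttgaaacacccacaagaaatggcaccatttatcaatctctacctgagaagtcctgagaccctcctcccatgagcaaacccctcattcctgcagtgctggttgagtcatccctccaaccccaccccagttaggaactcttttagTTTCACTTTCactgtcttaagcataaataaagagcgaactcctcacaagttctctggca
Samhd1: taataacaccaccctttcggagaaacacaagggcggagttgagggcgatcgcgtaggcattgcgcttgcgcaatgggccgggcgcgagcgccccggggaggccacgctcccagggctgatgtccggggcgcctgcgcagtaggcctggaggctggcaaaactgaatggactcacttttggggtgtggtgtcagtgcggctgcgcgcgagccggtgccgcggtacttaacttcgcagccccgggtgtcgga
Slfn5: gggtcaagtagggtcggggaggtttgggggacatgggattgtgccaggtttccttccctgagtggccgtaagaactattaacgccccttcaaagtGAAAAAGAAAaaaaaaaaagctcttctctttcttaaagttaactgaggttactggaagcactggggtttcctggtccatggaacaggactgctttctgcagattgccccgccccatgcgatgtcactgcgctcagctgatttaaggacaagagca
Trim25: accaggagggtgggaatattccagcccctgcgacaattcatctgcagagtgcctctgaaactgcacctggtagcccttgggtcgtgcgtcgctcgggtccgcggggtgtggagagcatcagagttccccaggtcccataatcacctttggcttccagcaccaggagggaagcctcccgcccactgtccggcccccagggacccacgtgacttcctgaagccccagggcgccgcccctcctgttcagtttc
The match in Gbp2 lies 59 bases before the start, and the match in Slfn5 falls in a run of A 155 bases before a start that is itself inside the annotated gene. Samhd1 and Trim25 have no ISRE core in these windows. The printed promoters were picked, so they cannot show whether a match goes with a direction of change with IL-4. Over the 20 genes with a match the median log2 ratio of IL-4 to untreated was -0.07 in the wild-type, and over the 16 without one it was 0.01. In the TIF1a-KO these medians were -0.11 and 0.21. The gap between genes with and without a match was not tested.

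Library totals ran from 11026033 to 11250099 expected reads, so that 3 reads, the smallest number taken as detection, correspond to 0.267 to 0.272 CPM, the count scaled by library total. All intervals and detection limits take in counting error alone. Trim24 was listed at 2.55 FPKM (fragments per kilobase of transcript, scaled by library size) in untreated and 1.48 in IL-4-treated wild-type macrophages, against 0.06 and 0.14 in the TIF1a-KO, matching the labels. All 8 macrophage markers examined were listed in every library and summed to 8320 to 14906 FPKM. Most of that sum was Lyz2, the gene of the lysozyme M locus, at 11289 and 10811 FPKM in the wild-type and 5193 and 4761 FPKM in the TIF1a-KO. Lyz2 was called lower in the TIF1a-KO in both pairs (log2 ratios -1.12 and -1.18), and Mertk higher with IL-4 (0.60). No other macrophage marker was called between the genotypes. With IL-4, Csf1r was called higher (0.90 and 1.07) and Cd14 lower (-1.07 and -0.88) in wild-type and TIF1a-KO, and Fcgr1 lower in the TIF1a-KO (-0.82). Of the plasmacytoid dendritic cell markers, the cells known as the main makers of type I interferon, Siglech was listed at 0 in 3 libraries and at 0.08 FPKM in untreated TIF1a-KO. The list summed to 4.44 to 8.47 FPKM, nearly all of it Cox6a2, which was called higher with IL-4 in the wild-type (log2 ratio 0.91). The 4 T cell markers summed to at most 1.35 FPKM, the 4 B cell markers to at most 6.52, the 4 mast cell markers to 3.58 to 8.96 and the 4 mesothelial or stromal markers to 8.02 to 18.2. The mast cell marker Cpa3 (1.19, 0.92, 2.51 and 2.26 FPKM in the order above) and Col1a1 (10.9, 8.46, 4.81 and 15.4 FPKM) were called higher in the TIF1a-KO than in the wild-type with IL-4. So was the mesothelial marker Msln (log2 ratio 1.85, on 13 reads against 2), while Upk3b (-0.83) and Pdgfra (-0.20) were not called. The mast cell markers Cma1 (0.02), Tpsb2 (0.29) and Mcpt4 (1.54) were not called there either. Without IL-4, Col1a1 (-1.16) and Pdgfra (-0.69) were called lower in the TIF1a-KO and Cma1 higher (1.91). With IL-4 against untreated, Col1a1 was called higher (1.66) and Cma1 lower (-1.43) in the TIF1a-KO. In the wild-type Msln (-1.76) and Pdgfra (-0.63) were called lower with IL-4. Their part in the results below was not tested, and in bulk RNA fewer cells of a type and less RNA per cell cannot be told apart.

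The panel was a small part of the RNA and was uneven. It took 0.232%, 0.232%, 0.248% and 0.252% of the reads in wild-type untreated, wild-type IL-4, TIF1a-KO untreated and TIF1a-KO IL-4 macrophages. The median gene stood at 7.96, 7.99, 8.07 and 8.02 FPKM in that order. Ifitm3, which blocks entry of viruses from endosomes, and Lgals3bp, a secreted glycoprotein, were above 200 FPKM in every library, while Mx1, Mx2, Iigp1 and Ifi44 had means under 1 FPKM. The IFIT and Mx genes, often used as readouts of an interferon response, were at or below 1.99 FPKM in every library.

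**Figure D1:**
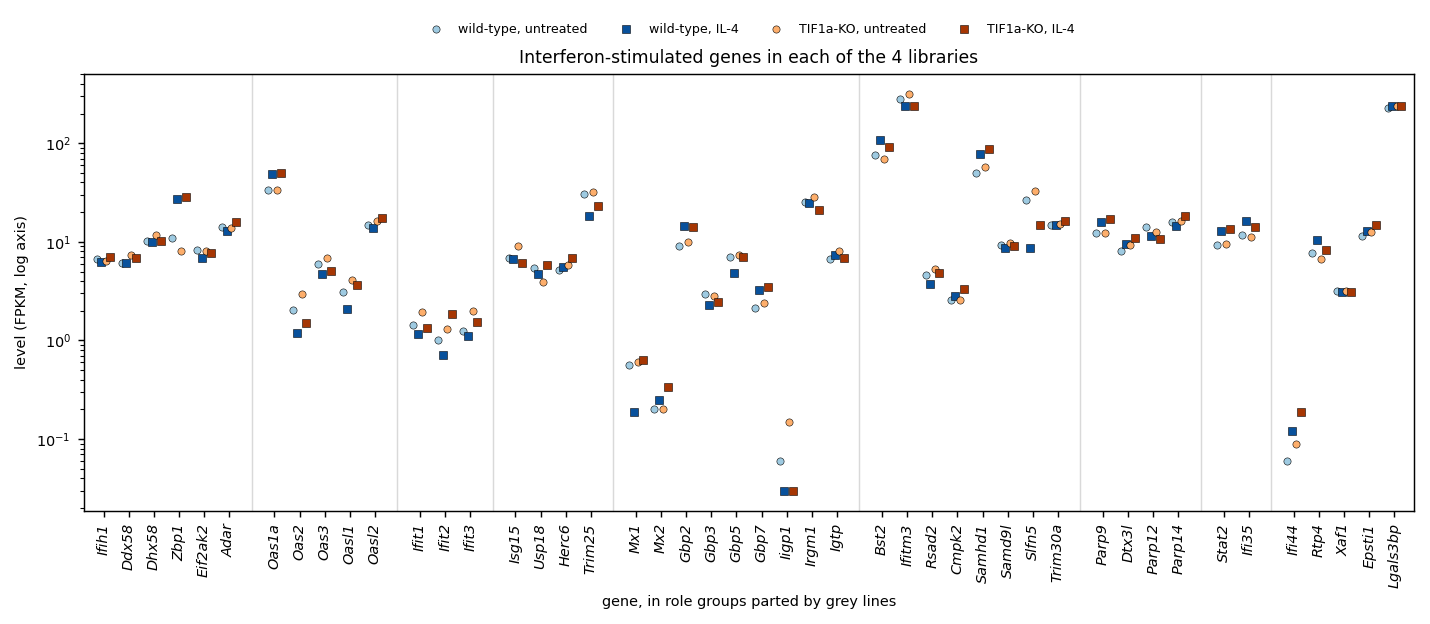
Level of each of the 46 genes in each library, in FPKM on a log axis; circles are untreated and squares IL-4-treated libraries, blue wild-type and orange TIF1a-KO, with 1 library per symbol and no error bar. Zbp1 sits near 8 to 11 FPKM untreated and 27 to 28 FPKM with IL-4, and Slfn5 sits at 26.5 and 32.5 FPKM untreated and at 8.68 and 14.9 FPKM with IL-4.

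To ask whether the program moved with IL-4, the treated and untreated libraries of each genotype were compared. A gene is called at an adjusted p under 0.05 (two-sided Fisher's exact test on reads, Benjamini-Hochberg over all genes with a read in the pair) and a fold above 1.5 in FPKM + 0.1. Log2 ratios are given on that scale with a standard error that covers counting only. In the wild-type 3 of 46 genes were called higher, Zbp1, Gbp2 and Samhd1, beside 4.91% of all 15593 genes. The 3 called lower were Oas2, Trim25 and Slfn5, beside 7.88% of all genes. In the TIF1a-KO 2 genes were called higher, Zbp1 and Samhd1, beside 5.29% of 15738 genes, and 2 were called lower, Oas2 and Slfn5, beside 4.03%. The panel had a median log2 ratio of -0.05 for the wild-type pair and 0.07 for the TIF1a-KO pair, beside -0.03 and 0.00 over all genes. The panel thus did not move in 1 direction with IL-4, and the share of its genes that was called was near that of all genes. It was 13.0% beside 12.8% in the wild-type and 8.7% beside 9.3% in the TIF1a-KO.

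The wild-type IL-4 library also differed from the others in a way that follows transcript length. Over 10443 genes of at least 1 FPKM, the log2 ratio of IL-4 to untreated fell with length in the wild-type (Spearman's rho of -0.37 across genes) and less so in the TIF1a-KO (-0.11). The ratio of TIF1a-KO to wild-type rose with length with IL-4 (0.52) and less so without (0.13). These are descriptions across genes, which are not independent replicates and share their libraries. The 46 genes ran from 648 bases (Ifitm3) to 7251 bases (Parp14), so for each result below the value with a smooth length curve of each library subtracted is given where it changes a call. With the curve removed, 5 genes were called higher with IL-4 in the wild-type (5.18% of all genes), with Gbp7 and Stat2 added, and 2 were called lower (5.23%), with Trim25 lost, and the panel's median became 0.04. In the TIF1a-KO the counts were the same, 2 higher (5.16%) and 2 lower (4.05%).

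Among the sensors of viral nucleic acid, Zbp1 rose most with IL-4 of all 46 genes in both genotypes. Zbp1 (gene ID 58203, chromosome 2, 173206612 to 173218959 on GRCm38) encodes a sensor of Z-form nucleic acid that can trigger necroptosis. It stood at 10.9 FPKM in untreated and 27.3 FPKM in IL-4-treated wild-type macrophages, and at 8.0 and 28.3 FPKM in the TIF1a-KO. The libraries rested on 122, 347, 100 and 328 expected reads, and both treated libraries were far above both untreated ones. The log2 ratio was 1.31 ± 0.15 in the wild-type (Fisher's exact test, adjusted p = 8.1e-24) and 1.81 ± 0.16 in the TIF1a-KO (adjusted p = 4e-28), that is 2.48-fold and 3.5-fold. Differences between responses were tested on the reads, and by the count scaled by library total the log2 ratios of Zbp1 were closer, at 1.47 and 1.70. Their difference on that count scale was 0.23, with a 95% counting interval of -0.21 to 0.67.

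The other 5 sensors were not called in any pair. Their ratios of IL-4 to untreated in the wild-type ran from -0.28 (Eif2ak2, the kinase PKR that halts translation) to 0.00 (Ddx58, the RNA helicase RIG-I). The RIG-I-like receptors Ifih1 (MDA5), Ddx58 and Dhx58 (LGP2) stayed between 6.07 and 11.7 FPKM in all 4 libraries. Adar, which edits adenosine to inosine in double-stranded RNA, stood at 14.3, 12.8, 13.8 and 15.8 FPKM in the library order above. Its exons overlap those of Chrnb2 on the other strand.

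Active enzymes of the oligoadenylate synthetase family make the activator of the nuclease RNase L. The genes of the family lie on chromosome 5 and split by direction with IL-4. Oas1a, the most abundant of them, was listed at 33.4 FPKM in untreated and 49.0 FPKM in treated wild-type macrophages, and at 33.4 and 49.6 FPKM in the TIF1a-KO. Both treated libraries were above both untreated ones by nearly the same amount, 1.47-fold and 1.48-fold, just under the fold required (log2 ratios of 0.55 ± 0.07 and 0.57 ± 0.07). Its expected counts were not whole, as where reads match several genes and are divided by the authors' model. Its close relative Oas1g, outside the panel, was called higher with IL-4 in both genotypes.

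Oas2 went the other way and was called lower in both genotypes. Its levels were 2.06 and 1.18 FPKM in the wild-type and 2.93 and 1.49 FPKM in the TIF1a-KO, on 89, 52, 126 and 64 reads. The log2 ratio was -0.75 ± 0.25 in the wild-type (Fisher's exact test, adjusted p = 0.0053) and -0.93 ± 0.22 in the TIF1a-KO (adjusted p = 6.5e-05). Oas3 had ratios of -0.33 and -0.43 and was not called. Oas1a, Oas2 and Oas3 lie within 120730333 to 120907544 on chromosome 5, so genes of opposite direction were neighbours.

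The 3 IFIT genes, which encode proteins that bind foreign RNA and block its translation, are neighbours on chromosome 19 and were all low. Ifit1, the most abundant of them by mean, stood at 1.43, 1.17, 1.95 and 1.35 FPKM on 34.96 to 56.96 expected reads. None was called with IL-4, and the ratios in the wild-type ran from -0.44 (Ifit2) to -0.16 (Ifit3). At these counts the standard errors were 0.25 to 0.40, so that small changes were not detectable at this depth.

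In the ISG15 pathway, Trim25, a ubiquitin ligase that activates RIG-I, was the gene called. It fell from 30.3 to 18.3 FPKM in the wild-type pair and was listed at 32.1 and 23.2 FPKM in the TIF1a-KO pair. Both treated libraries were below both untreated ones. The wild-type log2 ratio was -0.73 ± 0.05 (Fisher's exact test, adjusted p = 1.6e-41) and the TIF1a-KO ratio was -0.47 ± 0.05, under the fold required. Trim25 is long, at 5596 bases, and with the length curve removed its wild-type ratio was -0.46, no longer called. Isg15 itself, the ubiquitin-like modifier, stood at 6.93, 6.65, 9.04 and 6.04 FPKM, Usp18, which removes it, at 5.47, 4.76, 3.94 and 5.83, and neither was called. Herc6, the ligase that attaches Isg15 in mice, was not called either.

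Among the interferon-inducible GTPases, which act on the vacuoles and membranes of pathogens, Gbp2 was called higher with IL-4 in the wild-type. Gbp2 (gene ID 14469, chromosome 3, 142620663 to 142638008) stood at 9.12 and 14.3 FPKM in the wild-type and at 10.1 and 14.1 FPKM in the TIF1a-KO. The log2 ratio was 0.65 ± 0.12 (Fisher's exact test, adjusted p = 1.5e-07) in the wild-type and 0.48 ± 0.11, under the fold required, in the TIF1a-KO. The difference between these responses on the count scale was -0.16, with a 95% counting interval of -0.48 to 0.15 that holds 0.

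Gbp2 has 3 neighbours of the panel in the same cluster on chromosome 3, and they did not move together. Gbp7 had ratios of 0.57 ± 0.16 and 0.50 ± 0.15 in the wild-type and TIF1a-KO, and its wild-type ratio was 0.83 and called once the length curve was removed. Gbp5 stood at -0.52 ± 0.15 in the wild-type and -0.09 ± 0.13 in the TIF1a-KO, and Gbp3 at -0.36 and -0.22, and neither was called. All 4 guanylate-binding protein genes had expected counts that were not whole, so reads may be split among similar genes. Irgm1, the most abundant GTPase of the panel, was listed at 25.3, 24.5, 28.5 and 21.3 FPKM and was not called. Mx1, Mx2 and Iigp1 were at or below 0.63 FPKM in every library, and Iigp1 rested on 1 to 5 reads, too few for a ratio.

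The other virus-restricting genes held both a clear rise and the largest fall. Samhd1, a phosphatase that depletes the nucleotides needed for reverse transcription, stood at 49.98 and 77.7 FPKM in the wild-type and at 57.2 and 86.5 FPKM in the TIF1a-KO. Its log2 ratio was 0.63 ± 0.04 (Fisher's exact test, adjusted p = 2.5e-59) in the wild-type and 0.60 ± 0.04 (adjusted p = 1.8e-59) in the TIF1a-KO, and both treated libraries were above both untreated ones. The difference on the count scale was -0.03, with an interval of -0.14 to 0.07.

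Slfn5, of the Schlafen family, was the gene with the largest fall in both genotypes. It lies on chromosome 11 from 82951349 to 82964850 (gene ID 327978). It was listed at 26.5 FPKM untreated and 8.68 FPKM with IL-4 in the wild-type, on 1771 and 592 reads, and at 32.5 and 14.9 FPKM in the TIF1a-KO, on 2170 and 998 reads. Both treated libraries were well below both untreated ones. The log2 ratio was -1.60 ± 0.07 in the wild-type (Fisher's exact test, adjusted p = 1.2e-138), a 3.03-fold lower level, and -1.11 ± 0.06 in the TIF1a-KO (adjusted p = 1.8e-96), a 2.17-fold lower level. With the length curve removed these were -1.30 and -1.05, still called. An antisense gene that overlaps it, Slfn5os, averaged 2 reads against 1383 for Slfn5.

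Ifitm3 stood at 283 and 241 FPKM in the wild-type and 318 and 239 FPKM in the TIF1a-KO, with ratios of -0.23 and -0.41 that passed the adjusted p but not the fold. Bst2, which tethers budding virus at the cell surface, had ratios of 0.51 and 0.40, under the fold in both. Rsad2 (viperin) and its neighbour Cmpk2, which make an antiviral nucleotide analogue and its precursor, stayed between 2.55 and 5.35 FPKM and were not called. Samd9l and Trim30a had ratios between -0.12 and 0.11 in both genotypes.

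The remaining groups held no gene called with IL-4. Of the ADP-ribosyltransferase group, Parp9 and its partner Dtx3l, which lie side by side and overlap on opposite strands, had ratios of 0.36 and 0.23 in the wild-type and 0.47 and 0.25 in the TIF1a-KO. Parp14, first known as a cofactor of Stat6, was the most abundant of them at 16.0, 14.4, 16.2 and 18.2 FPKM. Stat2 had ratios of 0.47 ± 0.09 and 0.49 ± 0.09, and its wild-type value of 0.62 was called with the length curve removed. Ifi35, a signalling protein and the most abundant gene of its group, stood at 11.7, 16.3, 11.2 and 14.3 FPKM and was not called. Lgals3bp stayed between 229 and 239 FPKM, and its ratios were 0.06 ± 0.03 and -0.01 ± 0.03. Ifi44 rested on 2 to 6 reads, and Rtp4, Xaf1 and Epsti1 were not called.

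The ratios of the genotypes were correlated across genes. Over the 42 genes of at least 1 FPKM, the log2 ratios of IL-4 to untreated in the wild-type and in the TIF1a-KO had a Pearson correlation of 0.82 and a Spearman correlation of 0.72, and 32 had the same sign. Over all 10532 genes of at least 1 FPKM the correlations were 0.61 and 0.68, and 7829 had the same sign. These are descriptions across genes, and each ratio has its own pair of libraries. The order of the ratios at both ends, Zbp1 highest and Slfn5 lowest, was the same in both genotypes.

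**Figure D2:**
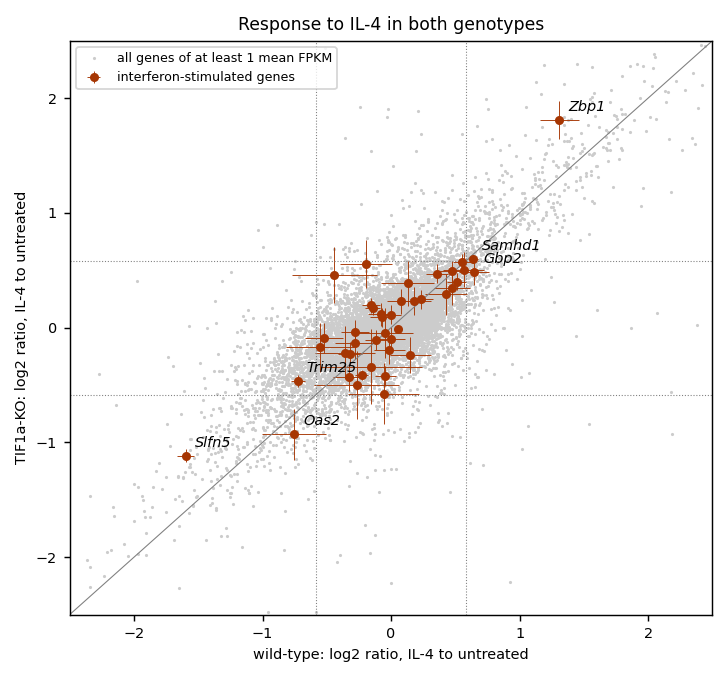
Log2 ratio of IL-4 to untreated in FPKM + 0.1, wild-type on the horizontal and TIF1a-KO on the vertical axis, for the 42 genes of at least 1 mean FPKM (brown, bars are counting standard errors) over all genes of that level (grey, those beyond the axes are not drawn). Dotted lines mark the 1.5-fold limit and the diagonal marks equal ratios; genes called in either genotype are named, with Zbp1 at 1.31 and 1.81 and Slfn5 at -1.60 and -1.11.

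The difference of the IL-4 responses, as log2 ratios of counts and not of FPKM, was then tested gene by gene, on 43 genes with a mean of at least 10 reads. No gene passed an adjusted p under 0.05 and a difference over 1.5-fold, in either direction, beside 2.43% (higher in the TIF1a-KO) and 0.446% (lower) of 11664 genes. At an unadjusted p under 0.05 there were 9, 7 higher and 2 lower in the TIF1a-KO, beside 23.2% of all genes. By adjusted p alone 6 passed, beside 12.8% of all genes. These were Adar, Trim25, Slfn5 and Parp14 with a more positive response in the TIF1a-KO and Irgm1 and Ifitm3 with a more negative one. The difference was 0.49 for Slfn5 (95% counting interval, 0.32 to 0.66), and it was 0.25 with the length curve removed. It was 0.35 for Adar (0.16 to 0.54) and 0.31 for Parp14 (0.16 to 0.47), which became 0.12 and 0.02 with the curve removed. Irgm1 differed by -0.38 (-0.61 to -0.15) and by -0.36 with the curve removed. The differences of Mx1, at 1.46 (-0.13 to 3.04), Ifit2, at 0.96 (0.15 to 1.77), and Usp18, at 0.76 (0.19 to 1.34), were larger. So was that of Isg15 in the other direction, at -0.52 (-1.26 to 0.23). None of these passed the adjusted test.

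To ask whether loss of TIF1a moved the program, TIF1a-KO and wild-type were compared without and with IL-4. Without IL-4 no gene of the panel was called higher or lower, beside 0.839% and 0.742% of 15623 genes. By Fisher's exact test 10 genes had an unadjusted p under 0.05, 8 higher and 2 lower in the TIF1a-KO, beside 16.4% of all genes. By adjusted p alone, which 6.63% of all genes passed, Slfn5, Samhd1 and Ifitm3 were higher, with log2 ratios of 0.29 ± 0.05, 0.19 ± 0.04 and 0.17 ± 0.04. Of the 46 genes 33 had a ratio above 0 and 12 below, beside 7180 and 7897 of 15623 genes, and the median was 0.11 against 0.00 over all genes. With the length curve removed none was called either (0.819% and 0.755% of all genes). Among the genes of at least 1 FPKM the values at the edges were those of Ifit3 (0.64 ± 0.35, from 1.24 to 1.99 FPKM), Usp18 (-0.46 ± 0.21) and Zbp1 (-0.45 ± 0.19), each on 27.2 to 122 expected reads a library.

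With IL-4, 4 genes were called higher in the TIF1a-KO, Ifit2, Mx1, Oasl1 and Slfn5, beside 3.05% of 15573 genes. None was called lower, beside 0.764%, and 16 had an unadjusted p under 0.05 by Fisher's exact test, 13 higher and 3 lower, beside 28.5% of all genes. By adjusted p alone 12 passed, 11 higher and 1 lower (Bst2, log2 ratio -0.22), beside 19.9% of all genes. The median ratio was 0.15 against 0.02 over all genes, and 35 of 46 were above 0, beside 8137 of 15573 genes. With the length curve removed 2 stayed called, Ifit2 and Oasl1, beside 1.39% of all genes higher and 0.629% lower. The median became 0.06 and 31 of 46 were above 0, beside 7818 of 15573 genes.

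Ifit2 had the largest ratio among the genes of at least 1 FPKM. Its levels were 1.0 and 0.71 FPKM in the wild-type and 1.32 and 1.85 FPKM in the TIF1a-KO, on 44, 32, 58 and 81 reads in the library order above. The TIF1a-KO library with IL-4 was the highest of the 4 and the wild-type library with IL-4 the lowest. The log2 ratio with IL-4 was 1.27 ± 0.30 (adjusted p = 2.6e-05 by Fisher's exact test), and 1.18 with the length curve removed.

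Oasl1, an OAS-like protein known to restrain translation of Irf7, stood at 3.11, 2.09, 4.14 and 3.67 FPKM on 73, 50, 97 and 86 reads. Its ratio with IL-4 was 0.78 ± 0.26 (adjusted p = 0.01 by Fisher's exact test). As with Ifit2, the wild-type IL-4 library was the lowest of the 4. Mx1, a dynamin-like GTPase against influenza viruses, stood at 0.57, 0.19, 0.61 and 0.63 FPKM, a ratio of 1.33 ± 0.65 with an adjusted p of 0.045 by Fisher's exact test that rested on 6.25 expected reads in the wild-type IL-4 library. With the length curve removed its ratio was 1.34 and no longer called (adjusted p = 0.07 by an exact binomial test).

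Slfn5 was higher in the TIF1a-KO in both pairs. The ratio was 0.29 ± 0.05 without IL-4 and 0.78 ± 0.07 with it (adjusted p = 1.8e-24 by Fisher's exact test), 0.52 and under the fold with the length curve removed. The 2 untreated libraries were above the 2 treated ones for Slfn5, with the TIF1a-KO the higher within each treatment.

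**Figure D3:**
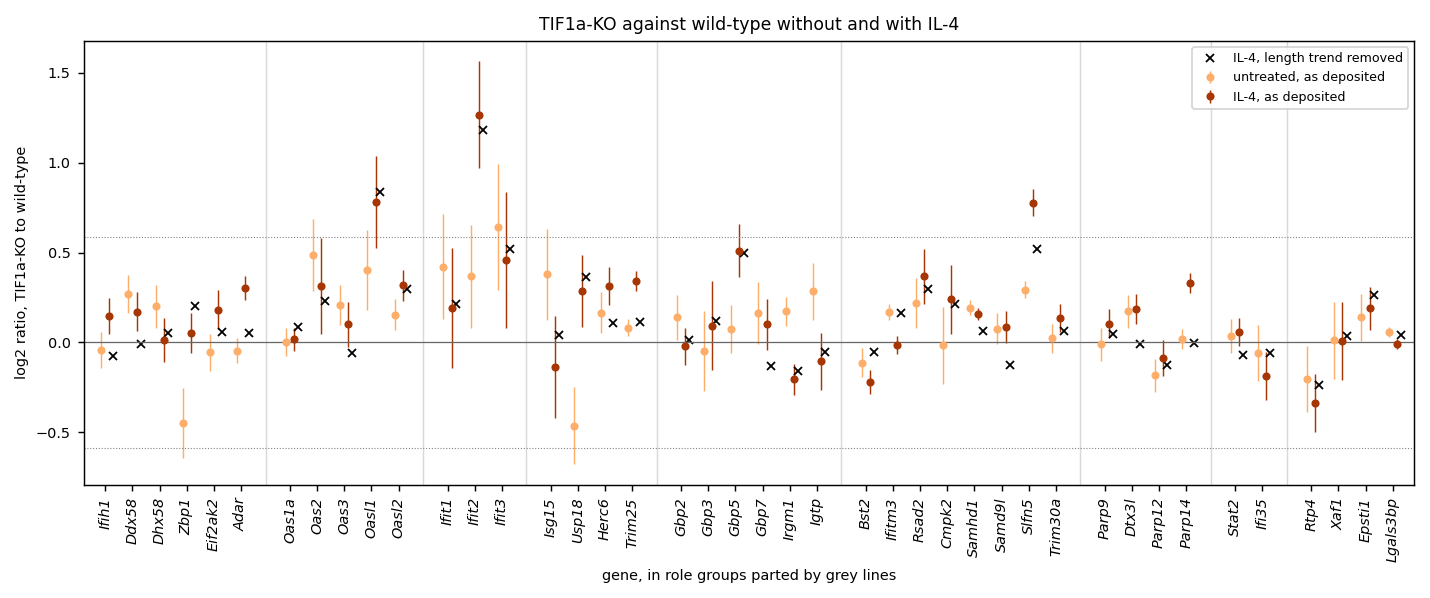
Log2 ratio of TIF1a-KO to wild-type in FPKM + 0.1 for each of the 42 genes of at least 1 mean FPKM, untreated (light) and with IL-4 (dark), bars being counting standard errors, and with IL-4 after the length curve was removed (crosses). Dotted lines mark the 1.5-fold limit; Ifit2 at 1.27, Oasl1 at 0.78 and Slfn5 at 0.78 lie above it with IL-4, and the cross of Slfn5 lies below it.

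Genes high in the TIF1a-KO without IL-4 were only in part those that were high with it. Over the 42 genes of at least 1 FPKM the ratios without and with IL-4 had a Pearson correlation of 0.39 and a Spearman correlation of 0.36, and 24 were above 0 in both. Over all 10532 genes of that level the correlations were 0.21 and 0.32, and 3207 were above 0 in both. Within families the pattern was mixed. Without IL-4 the sensors had 2 ratios above 0 and 4 below, and the ADP-ribosyltransferase group 2 and 2. With IL-4 the sensors had 6 and 0, and the ADP-ribosyltransferase group 3 and 1. All 5 OAS and OAS-like genes and all 3 IFIT genes had ratios above 0 in both pairs. Of all genes 7180 of 15623 were above 0 without IL-4 and 8137 of 15573 with it. Untreated Oas1a was level, on 694.87 reads in the TIF1a-KO and 695.1 in the wild-type. The ratios ran from 0.00 (Oas1a) to 0.64 (Ifit3) without IL-4 and from 0.02 (Oas1a) to 1.27 (Ifit2) with it. Only Ifit2 and Oasl1 of these 8 were called, and with IL-4 alone. With the length curve removed Oas3 with IL-4 was at -0.06 and the other 7 were still above 0.

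The length trend had its clearest mark on the genotype comparison with IL-4. Over the 42 genes of at least 1 FPKM the ratio of TIF1a-KO to wild-type with IL-4 followed transcript length with Spearman's rho of 0.50, against 0.52 over all genes, and -0.11 once the curve was removed. The curve came to -0.18 at the length of Ifitm3 and 0.33 at that of Parp14. Of the 13 genes of 4000 bases or more, the median ratio was 0.18 as deposited and -0.01 with the curve removed. For the 16 genes of 2500 to under 4000 bases the values were 0.22 and 0.21, and for the 17 shorter ones -0.01 and 0.05. The ratio of Parp14 itself went from 0.33 to 0.00, and that of Trim25 from 0.34 to 0.11.

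**Figure D4:**
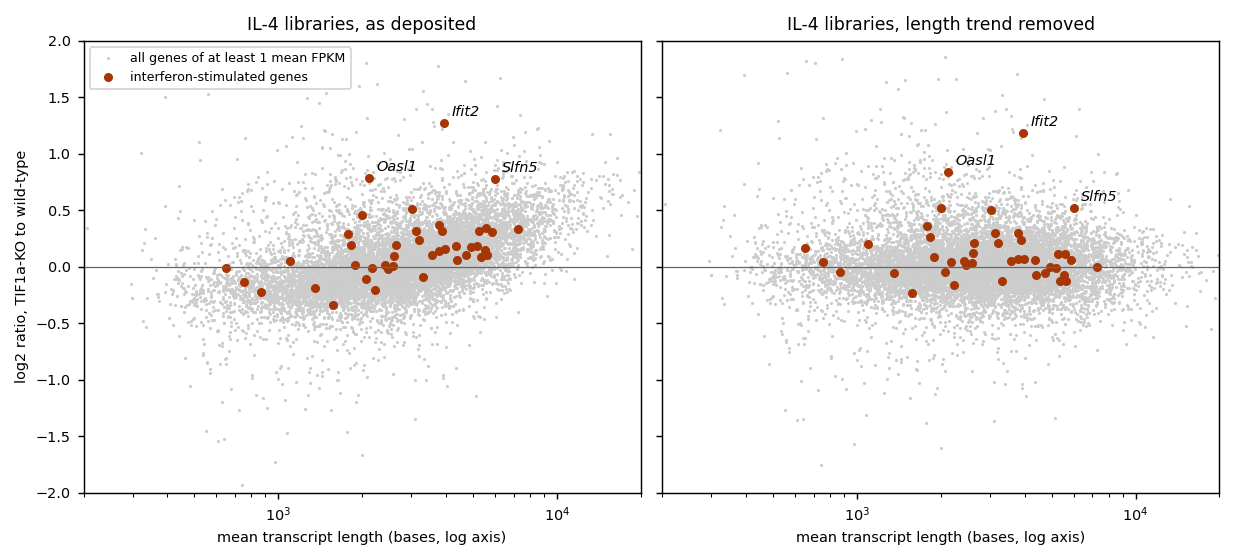
Log2 ratio of TIF1a-KO to wild-type with IL-4 against mean transcript length in bases (log axis), as deposited (left) and with the length curve removed (right), for the 42 genes of at least 1 mean FPKM (brown) over all genes of that level (grey, those beyond the axes are not drawn). The rise with length on the left, with rho of 0.50 over the 42 genes, is -0.11 on the right; Ifit2 and Oasl1 stay above the other genes in both.

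An additive model of genotype and treatment over all 4 libraries is the one fit with a residual, of 1 degree of freedom. It takes the other factor as replication and assumes no interaction. By edgeR's quasi-likelihood test at an adjusted p under 0.05, of 43 genes fitted 9 were higher with IL-4, Bst2, Gbp2, Gbp7, Ifi35, Oas1a, Parp9, Samhd1, Stat2 and Zbp1, beside 12% of 11791 genes. The 5 lower were Ifitm3, Oas2, Oas3, Slfn5 and Trim25, beside 13.3%. For genotype Slfn5 alone was higher in the TIF1a-KO (log2 effect 0.52, adjusted p = 0.028), beside 1.29%, and none was lower, beside 0.373%, with 8 of the 43 at an unadjusted p under 0.05, against 1680 of 11791 genes. The IL-4 effects ran from 1.60 (Zbp1) to -1.35 (Slfn5). With DESeq2 the counts for IL-4 were 4 higher and 2 lower, beside 617 and 606 of 11927 genes. For genotype they were 0, beside 57 higher and 8 lower of 11610 genes.

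The interferon pathway around the panel was looked at through 70 further genes, of which 61 were listed. All 8 interferon genes in the list, Ifnb1, Ifna1, Ifna2, Ifna4, Ifna5, Ifng, Ifnl2 and Ifnl3, were listed in no library. Of the 6 receptor chains 1 was called higher with IL-4 in the wild-type, Il10rb, beside 4.91% of all genes. Il10rb stood at 210 and 355 FPKM in the wild-type (log2 ratio 0.76). In the TIF1a-KO it stood at 229 and 333 FPKM (0.54), a rise under the fold required. None of the chains was called in another pair. Ifnar1 stood at 18.8 to 23.3 FPKM and Ifnar2 at 63.1 to 78.1 FPKM, both not called.

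Of the 10 JAK, STAT and IRF factors 2 were called higher with IL-4 in both genotypes, beside 4.91% and 5.29% of all genes, and none otherwise. These were Jak2 (10.1 and 26.4 FPKM in the wild-type, 10.3 and 29.0 in the TIF1a-KO) and Irf1 (22.1 and 55.8, 26.6 and 49.0). Irf9, which works with Stat2, stood at 14.4 to 15.7 FPKM and was not called in any pair. Irf7, a master regulator of interferon genes that is itself interferon-inducible, stood at 12.2 to 16.0 FPKM and was not called. Of the 11 genes that lead to interferon production, Tlr9 was the one called (1.84, 0.97, 3.48 and 1.69 FPKM). It was called lower with IL-4 in both genotypes and higher in the TIF1a-KO in both pairs. Its genotype ratio with IL-4 was 0.69 with the length curve removed and no longer called (adjusted p = 0.079 by an exact binomial test). Of all genes 7.88% were called lower with IL-4 in the wild-type and 4.03% in the TIF1a-KO. The shares called higher in the TIF1a-KO were 0.839% without IL-4 and 3.05% with it.

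Among the 5 negative regulators Socs1 and Ptpn2 were called higher with IL-4 in both genotypes, with Socs1, an inhibitor of JAK kinases, at 0.83 and 26.1 FPKM in the wild-type and 0.98 and 22.9 FPKM in the TIF1a-KO. Socs3 was called higher and Ptpn6 lower with IL-4 in the TIF1a-KO, and Socs3 was called lower in untreated TIF1a-KO than in untreated wild-type. Of all genes 4.91% were called higher with IL-4 in the wild-type, and 5.29% higher and 4.03% lower in the TIF1a-KO. The share called lower in untreated TIF1a-KO than in untreated wild-type was 0.742%. Of 29 further interferon-inducible genes with reads 7 were called higher with IL-4 in the wild-type, Ifi204, Ifi47, Tor3a, Ube2l6, Oas1g, Gbp6 and Psmb9, and 1 lower, Nlrc5, beside the 4.91% and 7.88% of all genes above. Ube2l6 (0.55) and Nlrc5 (-0.44) lost their calls and Slfn1 (-1.15) was called lower once the length curve was removed. In the TIF1a-KO 5 of them were called higher, the first 5 of those names, and 0 lower, beside 5.29% and 4.03%. Between the genotypes Phf11b was called higher in the TIF1a-KO without IL-4 and Nlrc5 with IL-4, beside 0.839% and 3.05% of all genes. Ifi204, a DNA-binding protein of the p200 family, showed the largest of these rises, at 15.8 and 45.4 FPKM in the wild-type and 17.8 and 45.2 FPKM in the TIF1a-KO. In the test of the difference of the IL-4 responses, 1 of 5 negative regulators passed, higher in the TIF1a-KO. Of 24 further genes tested 1 passed higher and 1 lower, beside 2.43% and 0.446% of all genes. With the length curve removed 1 negative regulator passed higher, and 1 further gene higher and 0 lower, beside 77 and 31 of 11664 genes.

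The calls were also tested with an assumed spread between replicates. With edgeR's exact test and an assumed biological coefficient of variation of 0.1, Gbp2 and Oas2 lost their calls in the wild-type, Samhd1 in the TIF1a-KO, and Oasl1 and Mx1 between the genotypes with IL-4. With 0.2, Slfn5 in the wild-type and Zbp1 in the TIF1a-KO were the calls left, and none was left between the genotypes.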

How the data were processed

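Total RNA of 4 macrophage libraries, 1 for each genotype and treatment in the labels, was sequenced on an Illumina HiSeq instrument. Per the study's methods and the submitters' processing notes, the authors aligned the reads with Bowtie to the mouse genome (GRCm38, mm10) and estimated gene levels by RSEM, with versions not given in the sources used here. The expected counts deposited by the authors are reads that RSEM assigned to each gene, which need not be whole, and 22.2% to 22.8% of them were not. The FPKM values deposited by the authors divide these by transcript length and library total. Genes not listed in a library were set to 0. Of the 46 genes, 25 had expected counts that were not whole, as where reads match similar genes, and 5 had exons overlapping another gene in GENCODE M21, 4 of them on the opposite strand. Whether counting used strand is not stated in the sources used here. Names, positions and promoters came from RefSeq (GRCm38.p6), with 16365 of 16403 gene IDs matched.

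Pairs of libraries were tested on rounded expected counts against library totals (11026033 to 11250099 reads) with Fisher's exact test, two-sided, and p-values were adjusted by Benjamini-Hochberg over all genes that had reads in either library. A call needed an adjusted p under 0.05 and a fold over 1.5 in FPKM + 0.1, a scale that understates changes of low genes. Standard errors cover counting error only. Differences of IL-4 responses used log2 ratios of counts + 0.5 over their counting error, for genes with a mean of at least 10 reads. The additive model used edgeR 4.0.16 (TMM, filterByExpr, quasi-likelihood test). For the length trend, the log2 departure of a library from the 4-library mean was smoothed over log2 transcript length by lowess (fraction 0.3), using genes with 200 bases and 1 FPKM or more, and an exact binomial test used the shifted expected share. The alternatives were pseudocounts of 0.01 and 1, a minimum of 1 FPKM, TMM and DESeq2 size factors, CPM, a fold over 2, edgeR's exact test with an assumed coefficient of variation, 3 reads added, a minimum of 50 reads, all genes with a read, DESeq2 1.42.0 and limma 3.58.1. The tests were tried on simulated data. Python 3.11.15, scipy 1.17.1, statsmodels 0.14.6 and R 4.3.3 were used.

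The members, gene lists and tests were chosen with earlier results of these data known. Values in every library are given for genes called in any pair, or past the threshold for the difference of the responses, or highest by mean FPKM in their role group, and pathway genes are named where called. Other genes and ratios named were chosen after their values were seen.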

Additional observations from a re-analysis of the deposited data

How the results depend on the processing

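Of the counts of genes recomputed under the alternatives, 77 stayed within 1.5 times the value reported and 25 did not. The 77 include all counts that were 0 both as reported and recomputed. These were the calls between genotypes without IL-4, the calls lower in the TIF1a-KO with IL-4, those of the difference of the responses and those lower for genotype in the additive model. Of the recomputed ratios of called genes, 109 kept their direction and side of the threshold and 30 lost the call. A minimum of 1 FPKM, a fold over 2 and an assumed coefficient of variation leave the ratio itself unchanged, so its direction could not turn there. Of 24 recomputed panel medians, the one for IL-4 in the wild-type with the length trend removed turned sign, from -0.05 to 0.04. In the wild-type with IL-4, the genes called higher numbered 5 with TMM scaling, 1 with a fold over 2, 5 with the length trend removed and 0 with an assumed coefficient of variation of 0.2, against 3. Those called lower numbered 1 with a fold over 2 and 1 with a coefficient of 0.2, against 3. In the TIF1a-KO the genes called higher numbered 1 with a fold over 2 and with coefficients of 0.1 and 0.2, against 2, and those called lower 1 with a fold over 2 and 0 with a coefficient of 0.2, against 2. Between the genotypes with IL-4, 2 genes were called higher with a fold over 2, 2 with the length trend removed, 2 with a coefficient of 0.1 and 0 with 0.2, against 4. In the additive model, the genes higher with IL-4 numbered 4 with DESeq2 and 2 with limma, against 9, and those lower numbered 8 with the length trend as an offset, 3 with every gene with a read, 2 with DESeq2 and 2 with limma, against 5. For genotype, 3 genes were higher with the length offset and 0 with every gene with a read, DESeq2 or limma, against 1. Over all genes the numbers higher and lower with IL-4 were 1419 and 1568 of 11791 in the main fit. With the offset they were 2108 and 1799, and with every gene with a read 870 and 805 of 16371. DESeq2 gave 617 and 606 of 11927 genes, and limma 585 and 531. The numbers higher for genotype were 152 in the main fit, 399 with the offset, 18 with every gene with a read, 57 with DESeq2 and 3 with limma. Apart from the fold and the length curve, which act by construction, the cause of these changes was not tested.

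With a pseudocount of 1 the ratio of Oas2 with IL-4 in the wild-type was -0.49 and that of Mx1 between the genotypes with IL-4 was 0.45, both under the fold. No paired analysis was possible because each group holds 1 library and the labels give no replicate numbers, and for the same reason no replicate could be left out; the additive model is the one fit that takes the other factor as a block. Depth limits the IFIT, Mx, Iigp1 and Ifi44 genes most, since 3 reads correspond to 0.267 to 0.272 CPM and several of them rest on fewer than 10 reads.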
